A study of Phalaenopsis aphrodite with 54 samples.

Results

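The 150 contigs described here had the steadiest level across the tissues of the moth orchid *Phalaenopsis* on a custom Agilent array. They were chosen on measured values. In the deposited log2 values, in which 0 is the 75th percentile of an array, 3982 of the 43662 contigs with a probe had a mean above 0 in all 20 conditions hybridised as amplified RNA. Among those 3982, the 150 with the smallest standard deviation (SD) of the 20 condition means were taken, each contig being read on the brighter of its probes. Their steadiness on the amplified arrays is therefore a description and carries no test. Tests were made on 13 other arrays, hybridised without amplification, that took no part in the choice.

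A reference gene is a transcript against which others are measured in real-time PCR, and the comparison works only if its own level stays the same in every tissue compared. Genes of general cell upkeep are the usual candidates. Actin builds the filaments of the cytoskeleton, and ubiquitin is the small protein that tags other proteins for degradation by the proteasome. The study used ubiquitin (PATC150470) and actin (PATC135993) as its internal controls of real-time PCR. Orchid tissues differ widely in what they hold: the column joins the male and female organs, the pollinia are compact masses of pollen, the lip is a modified petal, and the pedicel carries the ovary.

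The series measured 54 arrays of 2 genotypes, the diploid species *P. aphrodite* and the commercial hybrid V3, which is tetraploid. Both were hybridised to probes designed from *P. aphrodite* contigs. The 41 amplified arrays held 7 *P. aphrodite* conditions (leaf, root, stalk, bud, flower, inflorescence and young inflorescence) and 13 V3 conditions. The V3 conditions were small bud, large bud, whole flower, the organs sepal, petal, lip, column, pollinia and pedicel, and flowers 1, 3, 8 and 15 days after pollination (DAP). Each amplified condition had 2 arrays, except *P. aphrodite* leaf with 3. The 13 unamplified arrays held leaf, flower and root of both genotypes, with 2 arrays per group and 3 for *P. aphrodite* leaf. The methods state 2 collections for the floral organs. For the other groups nothing says that arrays came from separate plants, so p-values measure only the spread between arrays, which may be technical.

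The amplified arrays had a 75th percentile of processed intensity of 2330.9 to 8095.0, and the unamplified arrays one of 448.2 to 1106.4. Between 71.3% and 82.7% of the spots of an array were well above background, and no spot was saturated. All 150 contigs were well above background on all 54 arrays, as were 99.9% of the 3982 contigs that met the same condition on level, against 48.7% of all contigs. In 6 amplified conditions and 2 unamplified groups a pair of arrays differed by little more than the spots within an array, and such a pair was counted as 1. The unamplified groups were *P. aphrodite* root, which so entered the tests as 1 replicate, and *P. aphrodite* leaf, which entered as 2. The labels of the tissues could be set against floral regulators that the study names. *PaAGL6-1*, a MADS-box gene, was highest in the lip (3.69 on the log2 scale) and at or near the floor in the leaf (-8.31). *PaAP2-7* (5.55) and *PaMYB-2* (4.61) were highest in the pollinia, and *PaAG-2* in the column (3.81). *PaPI-1* was highest in the petal (5.01) and *PaAGL6-2* in the pedicel (3.90). Of the 2 KNOX genes, listed here as inflorescence markers, 1 was highest in the pedicel (1.95) and the other in young inflorescence (2.28). *PaAG-4*, listed here as a marker of the pedicel, was highest in flowers 15 DAP (-0.36).

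No gene name or sequence accompanies the contigs in the files, so apart from the 2 controls the members are given by their identifier. Of the 45 contigs that the study names, 44 had a probe, and only the 2 controls were above 0 in all 20 conditions. Actin was a member and ubiquitin was not. The other 42, most of them regulators of flower development, had SDs of 1.33 to 5.30, with a median of 2.71.

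The SDs of the 150 contigs ran from 0.149 to 0.272, with a median of 0.245, against a median of 0.523 over the 3982. In these array values, the median member ranged over 0.89 on the log2 scale from its lowest to its highest condition, or 1.86-fold. The narrowest range was 1.45-fold and the widest 2.42-fold, and 34 members exceeded 2-fold. Among the 3982 contigs the median range was 4.38-fold, and among all contigs 7.29-fold. Just inside the threshold lay PATC138997 (SD 0.2716) and PATC203143 (0.2717), and just outside it PATC134290 (0.2725) and PATC138844 (0.2735), so the edge of the list is a cut through a continuous series. The members' mean levels lay between 0.33 and 6.12, with a median of 1.49.

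**Figure D1:**
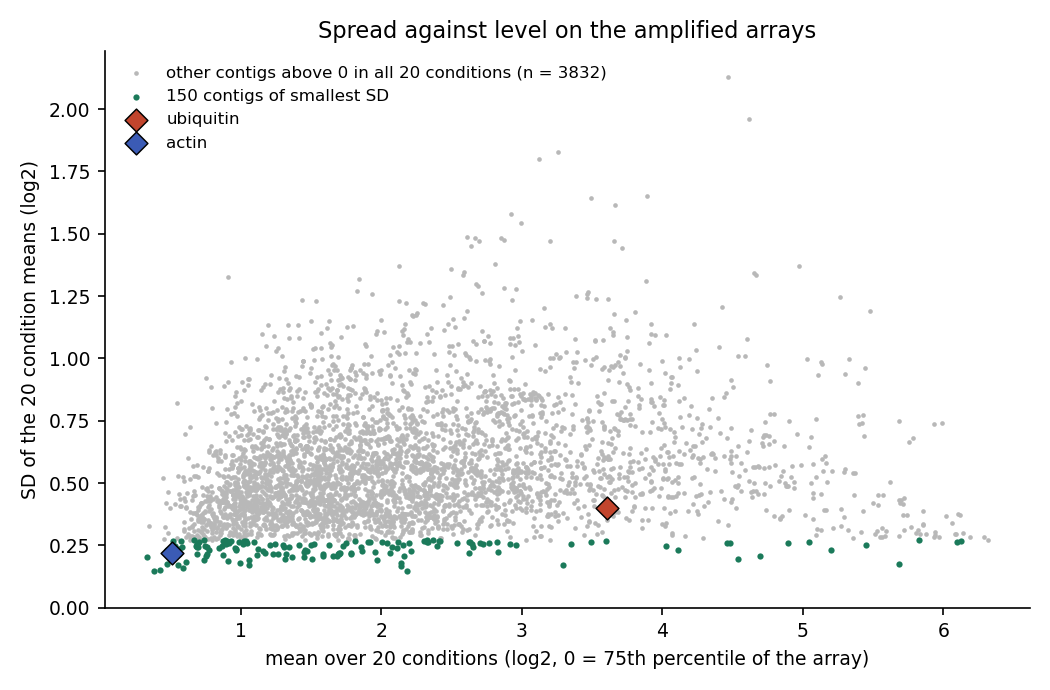
Each point is a contig above 0 in all 20 amplified conditions, with its mean level (log2, 0 being the 75th percentile of the array) on the x axis and the SD of its 20 condition means (log2) on the y axis. The 150 members lie at or below an SD of 0.272, actin among them at 0.221, while ubiquitin lies above at 0.402.

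The contig with the smallest spread, PATC154691 (SD 0.149), showed what the steadiest end of the list looks like array by array. Over the 41 amplified arrays its lowest value was 0.10, its median 0.42 and its highest 0.67. In *P. aphrodite* it read 0.58, 0.57 and 0.55 in leaf, 0.39 and 0.42 in root, 0.38 and 0.40 in stalk, and 0.45 and 0.42 in flower. These tissues thus sat within a narrow band. In V3 it read 0.48 and 0.47 in small bud, 0.41 and 0.42 in large bud, and 0.10 and 0.17 in the open flower. After pollination it read 0.14 and 0.11 at 1 DAP, 0.42 and 0.41 at 3 DAP, 0.14 and 0.13 at 8 DAP, and 0.19 and 0.18 at 15 DAP. The pollinia, at 0.65 and 0.67, were its highest tissue. Whole V3 flowers and most pollinated flowers lay below every *P. aphrodite* array, with the 3 DAP flowers the exception among them.

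The next contigs in order had their own highest and lowest tissues. PATC143844 (SD 0.149) was lowest in the *P. aphrodite* flower (1.92) and highest in the V3 petal (2.51). PATC125152 (SD 0.153) was lowest in the *P. aphrodite* bud (0.12) and highest in its leaf (0.69). PATC124404 (SD 0.160) was lowest in the pollinia (0.14) and highest in the *P. aphrodite* root (0.88). No single tissue was thus the extreme of all of them. PATC146863, PATC143636, PATC156902, PATC144913, PATC139901 and PATC155622 completed the first 10, with SDs of 0.169, 0.170, 0.172, 0.172, 0.174 and 0.178. PATC143636 ran from 2.98 in the petal to 3.58 in the column. PATC155622 was among the brightest of the list, at 5.39 to 6.22 over the arrays.

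The spread over conditions exceeded that between arrays of a condition for these contigs. The median SD between arrays of a condition was 0.052 for the members and 0.068 for the 3982 contigs. The spread over conditions was 4.63 times the spread within them for the median member (1.25 to 10.6) and 7.60 times for the median of the 3982. The arrays of a condition may be technical repeats, and these ratios use the values that chose the members.

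The control actin ranked 47th of the 3982 by SD (0.221, mean 0.51). It ran from 0.047 in the *P. aphrodite* young inflorescence, whose arrays read 0.14 and -0.05, to 0.95 in the V3 petal, whose arrays read 1.04 and 0.86. That is a 1.86-fold range, equal to the median of the list, and 80 members had a smaller one. In *P. aphrodite* leaf its 3 arrays read 0.21, 0.20 and 0.20. Because the young inflorescence lay so near 0, actin no longer met the level condition when replicate 1 of that tissue was left out, or when its 2 probes were averaged.

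Ubiquitin ranked 989th (SD 0.402, mean 3.61), with 24.8% of the 3982 contigs steadier. It read 2.89 and 2.85 in the V3 small bud, 2.91 and 2.93 in the large bud, 4.00 and 3.98 in the open flower, and 4.25 and 4.81 in the petal. From the small bud to the petal it ranged 3.17-fold, more than any of the 150 members. The V3 buds were not scanned in the batches of the petal. The petal was also the tissue whose arrays disagreed most for this contig, and its lower array was still above all arrays of the buds. In *P. aphrodite* ubiquitin read 3.78, 3.77 and 3.74 in leaf, 3.28 and 3.31 in root, and 3.16 and 3.66 in inflorescence, so that the leaf arrays lay above those of the other two.

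Each control had a second, dimmer probe, whose spread the rule did not use. For ubiquitin it gave a 3.13-fold range with the same lowest and highest tissues, and the 2 probes correlated at r = 0.96 over the 20 conditions. For actin it gave 2.12-fold (SD 0.305), also with the petal highest and the young inflorescence lowest, and r = 0.81. Both correlations are over conditions that share arrays and are given as descriptions. The 2 controls did not move together: their r over the 20 conditions was 0.21, and ubiquitin minus actin ranged from 2.15 in the small bud to 3.68 in the V3 flower. The choice between the 2 controls thus changed a comparison between those tissues by 2.87-fold. Those tissues were scanned in different batches.

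**Figure D2:**
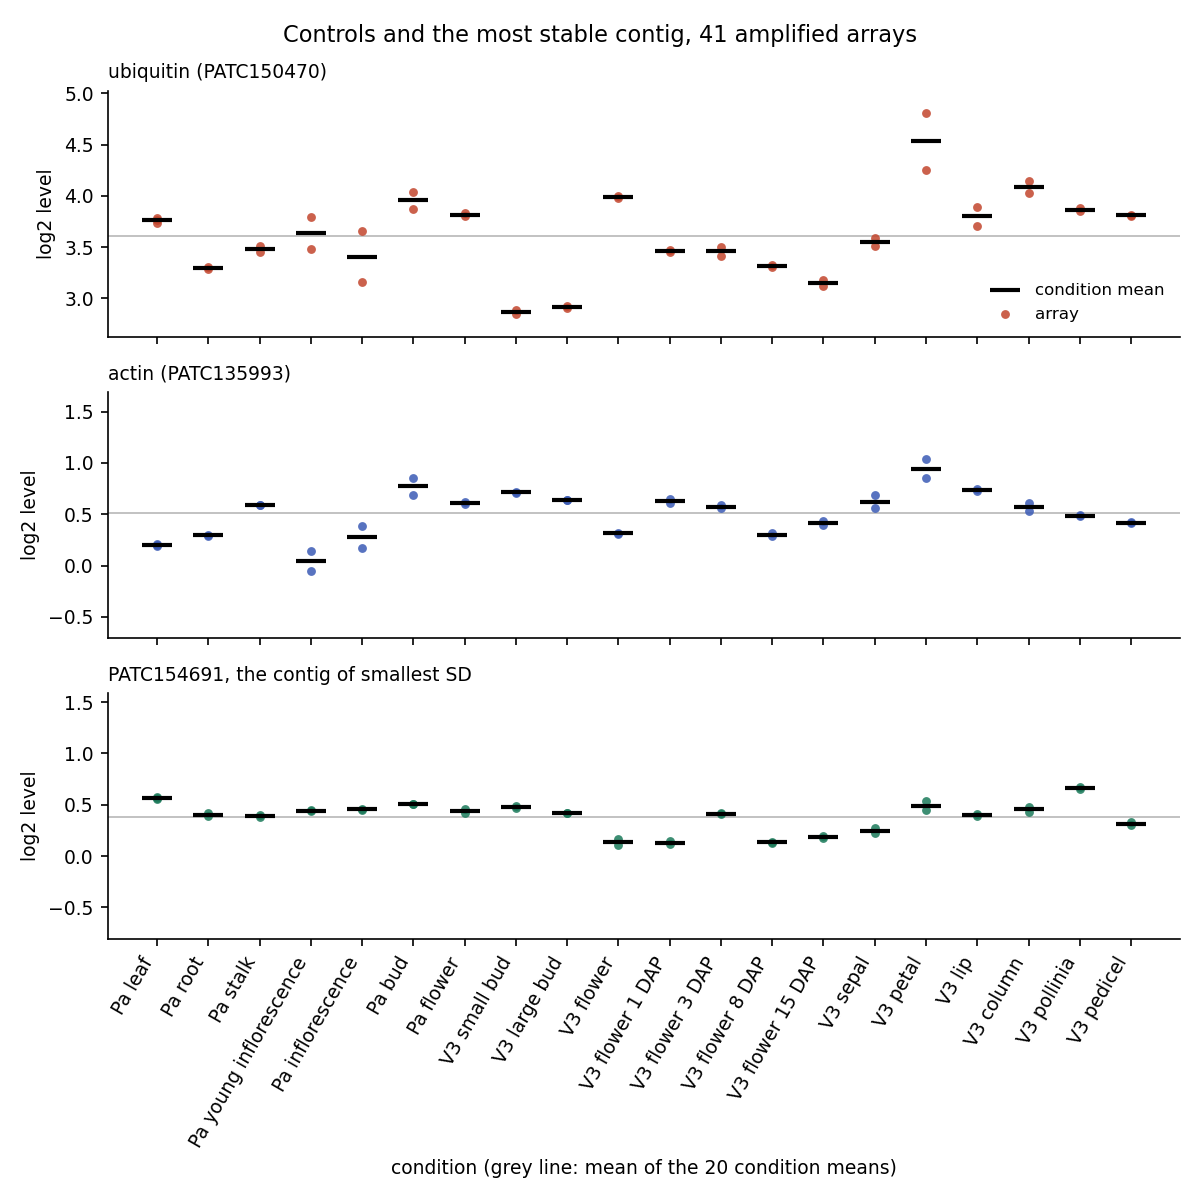
Level on the 41 amplified arrays (y axis, log2, 0 being the 75th percentile of the array) in the 20 conditions (x axis; Pa is *P. aphrodite*) for ubiquitin, actin and PATC154691, in panels of equal height in log2 units. Points are arrays, black bars condition means and the grey line the mean of the condition means: ubiquitin is low in the V3 buds and high in the petal, actin is lowest in the young inflorescence and highest in the petal, and PATC154691 stays between 0.10 and 0.67.

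How well a control did depended on the tissues compared. Over the 7 *P. aphrodite* tissues ubiquitin ranged over 0.66 and actin over 0.73, close to the members' median of 0.62. From V3 small bud through large bud to open flower, ubiquitin ranged over 1.12, wider than all 150 members (median 0.31), and actin over 0.40. The V3 buds were scanned in a batch of their own and the V3 flower in another, so stage and scan batch cannot be told apart here. Along the pollination series the ranges were 0.83 for ubiquitin, 0.32 for actin and 0.48 for the median member. Over the 6 floral organs they were 0.98, 0.53 and 0.62. Actin was thus steadier than the median member in pollination and in the floral organs, and ubiquitin was wider than it in all of these series. The median of the 3982 contigs was 1.16 in *P. aphrodite* tissues, 0.57 in buds and flower, 0.81 in pollination and 1.52 in floral organs.

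The amplified arrays were scanned in several batches, which are subsets of the arrays that chose the members, so the values within them are a description too. In the 3 batches that held 7, 11 and 6 conditions, the members' median range was 0.57, 0.79 and 0.68, against 1.15, 1.85 and 1.49 for the 3982 contigs. Ubiquitin ranged over 1.09, 1.48 and 0.88 in these batches, and actin over 0.89, 0.90 and 0.30. Actin was thus wider than the median member in the first and second of these batches, where its highest tissue was the petal, and narrower in the last. The V3 buds and the V3 flower were in none of these 3 batches. The rise of ubiquitin from bud to flower therefore has no reading within a batch.

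A mean over several contigs varied less than any one of them. The mean of the 3 steadiest members ranged 1.26-fold over the 20 conditions, that of the first 10 ranged 1.19-fold (lowest 8 DAP, highest in the column), and that of all 150 ranged 1.23-fold (lowest 15 DAP, highest in the column). What a reference does to a measured difference can be worked out for *PaPI-1* (PATC152852), a relative of PISTILLATA, which in *Arabidopsis* helps to specify petals and stamens. Its arrays read 4.85 and 5.16 in the petal and 4.42 and 4.42 in the lip, so that the lip was lower by the arrays' own scale, with a difference of -0.58. Set against the mean of the 150 members the difference was -0.64, against actin -0.37, and against ubiquitin 0.15. The sign turned only with ubiquitin, which was itself higher in the petal. The members were chosen to be steady on these same arrays, so the small change against their mean follows from the choice. The 0.15 was smaller than the gap between the 2 petal arrays of *PaPI-1*. Between petal and sepal *PaPI-1* differed by 1.37, which became 1.41, 1.04 and 0.39 against the same references. Of 6 such differences between floral organs worked out for *PaPI-1* and *PaAGL6-1*, lip against petal in *PaPI-1* was the 1 that changed sign. *PaAGL6-1* was at the floor of the scale in the petal, so the sizes of its differences are only bounds and are not given.

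The remaining variation of the members had a pattern over tissues. Pollinia were the highest tissue of 34 members, the column of 29 and the V3 flower of 23. Pollinia were also the lowest tissue of 20, followed by the stalk (18) and the *P. aphrodite* bud (16). The column was above the member's own mean for 118 of the 150, with a median deviation of 0.17, and the V3 flower had one of 0.13. Stalk (-0.13), 15 DAP (-0.11) and 8 DAP (-0.10) had the lowest median deviations. Pollinia thus sent members both ways, while the column sent most of them up. The pollinia held 13.7% of the members' squared deviations from their means and 29.5% of those of the 3982 contigs.

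The place of the pollinia depended on the scaling. In the deposited values their median deviation was 0.042. After quantile normalization it was -0.41, and pollinia were then the lowest tissue of 73 members and the highest of none. With that tissue left out of the rule, 5399 contigs were above 0 in every remaining condition, 70 of the 150 stayed among the first 150, and actin ranked 166th.

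**Figure D3:**
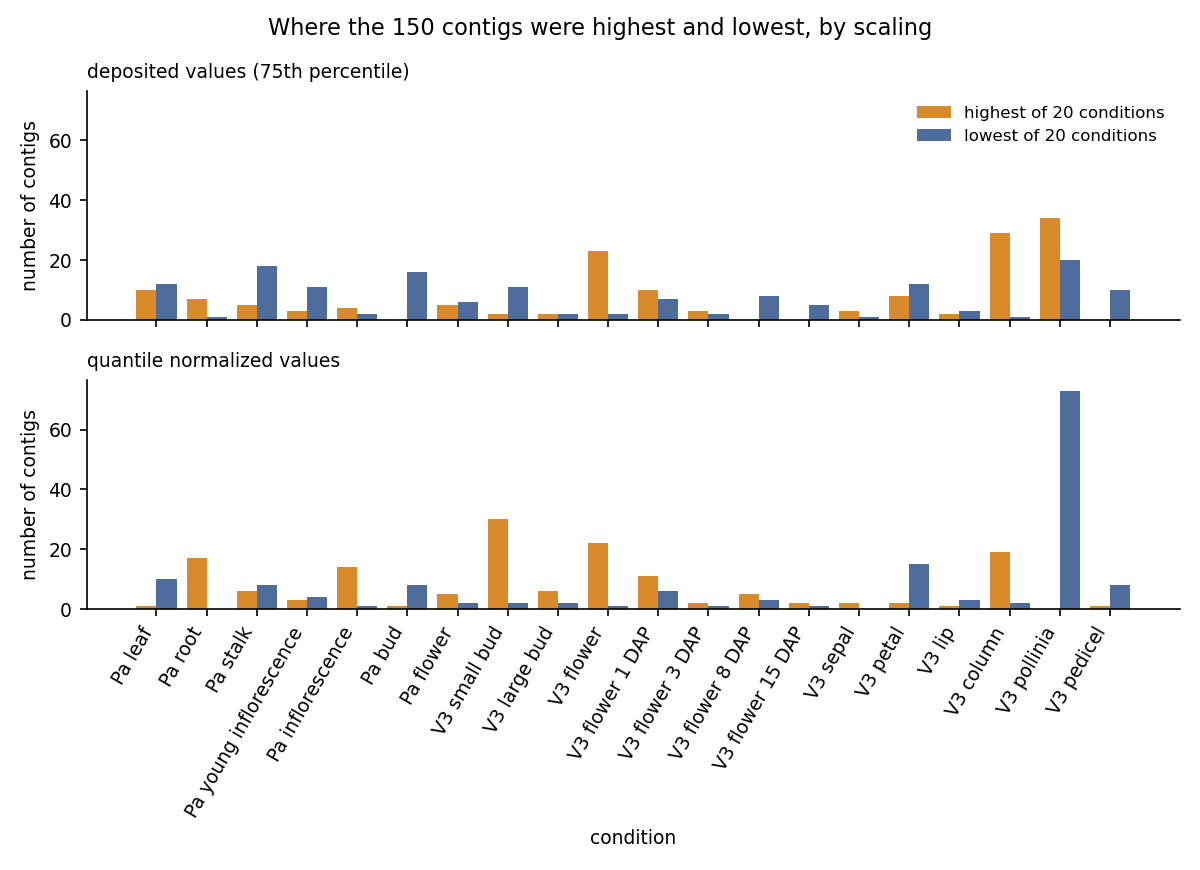
Number of the 150 members (y axis) whose highest or lowest condition mean fell in each of the 20 amplified conditions (x axis), in the deposited values and after quantile normalization. In the deposited values pollinia lead both counts (34 highest, 20 lowest), and after quantile normalization they are the lowest tissue of 73 members and the highest of none.

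The difference between the genotypes was bounded by the choice of members, since a low SD over all conditions limits it. The mean over V3 conditions minus that over *P. aphrodite* conditions had a median of 0.054 over the members, with 94 of 150 higher in V3, and ran from -0.33 to 0.29. The median over the 3982 contigs was 0.12. The tissues sampled differ between the genotypes, so this difference is not one of genotype alone. The whole flower, which was amplified in both genotypes, as were buds, gave a median of 0.14. There 92 members were higher in V3, with a range of -0.56 to 0.65.

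Some members were near copies of each other in pattern. Among 11175 pairs the median correlation over the 20 conditions was 0.10, but 61 pairs exceeded 0.8 and 43 exceeded 0.95. None was below -0.8. Joining contigs through pairs above 0.95 made 19 sets of 47 contigs, the largest of 6, and left 103 contigs alone, so the list held 122 distinct patterns by this count. PATC146863 and PATC153694, ranks 5 and 11, correlated at 0.99, and PATC124404 and PATC144913, ranks 4 and 8, at 0.98. Members of such a set are not independent candidates. Neighbouring identifiers did not always go together: PATC152263 and PATC152264 correlated at 0.97, but PATC125152 and PATC125154 at 0.47. The first principal component of the members held 19.6% of their variance and the second 12.3%, so no single pattern ran through the list.

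A second probe of the same contig gave a spread that the rule had not used. Its level did enter the rule, which took the brighter probe, so the second probe was by choice the dimmer one. It existed for 135 of the 150 members (90.0%, against 84.8% of the 3982 and 53.5% of all contigs). Its median SD over the 20 conditions was 0.275, from 0.126 to 1.48, against 0.553 over the 3982 contigs. It was at or under the threshold of the list for 63 members (46.7%, against 2.67% of the 3982), and 41 of these were also above 0 in every condition. Both probes of a contig were read on the same arrays. Of the first 10, 9 had a second probe and 8 of those were within the threshold. The exception was PATC154691, whose second probe had an SD of 0.317. The steadiest contig by the rule was thus not the steadiest by both of its probes.

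On the 13 unamplified arrays the members also varied less than other contigs. Their 6 group means ranged over a median of 0.75 on the log2 scale (1.68-fold, from 0.25 to 2.49), against 1.15 for the 3982 contigs and 1.41 for the 36163 contigs tested. The range was under 1 for 114 members (76.0%), 40.1% of the 3982 and 27.5% of all tested. These comparisons were not matched for level, and more of the members were dim. A mean amplified level of 0 to 1 held 49 members and 404 of the 3982, with median ranges of 0.74 and 0.82. At 1 to 2 the medians were 0.69 and 1.08, and above 5, with 7 members, 1.19 and 1.21. The members' median was also the lower at the levels between. The gap to the 3982 was thus small at the lowest and highest levels. Within the 3982, the median range rose along the order of the amplified SD, from 0.75 in ranks 1 to 150 through 0.84, 0.88, 1.08 and 1.22 to 1.69 in the last of 6 bins of rank. The rank correlation between amplified SD and unamplified range was 0.49 over the 3982 contigs and 0.19 within the members. The order inside the list therefore said little about the unamplified range. For the 4 groups hybridised both ways, the median range of the members was 0.45 amplified and 0.60 unamplified, and 109 members had the larger range without amplification. The other contigs of the 3982 had medians of 0.90 and 1.03. The members were chosen for a small amplified spread, so a larger unamplified range follows in part from the choice.

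The narrowest unamplified range belonged to PATC125154 (0.25), followed by PATC153408 (0.28), and neither passed the test among the 6 groups (adjusted p = 0.70 and 0.83). Their order was not firm: PATC125154 ranged over 0.13 without V3 root replicate 1 and 0.39 without V3 root replicate 2, and PATC153408 over 0.42 without V3 root replicate 1. With the mean of the probes the ranges were 0.85 and 0.60, and both passed. PATC154691 read -0.33, -0.34 and -0.48 in *P. aphrodite* leaf, -0.06 and -0.28 in V3 leaf, -0.70 and -0.47 in *P. aphrodite* flower and -0.39 and -0.09 in V3 flower. In root it read -0.18 and -0.43 in *P. aphrodite* and -0.32 and -0.26 in V3. The *P. aphrodite* flower lay below V3 leaf and all root arrays, V3 leaf lay above *P. aphrodite* leaf, and most other groups overlapped.

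With limma and Benjamini-Hochberg adjustment over all 36163 contigs, 63 of the 150 members (42.0%) differed among the 6 groups, against a background of 75.4% of all contigs and 73.3% of the 3982. With a difference of over 2-fold added, 31 members passed, against a background of 66%. The gap to all contigs in the first of these counts nearly closed with another background correction: with normexp on the median signals, 125 members passed (83.3%), against 83.5% of all contigs and 93.6% of the 3982. With normexp the members' share was thus close to that of all contigs and still below that of the 3982. The count also hung on single arrays, at 37 without *P. aphrodite* leaf replicate 1 and 96 without V3 root replicate 1.

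**Figure D4:**
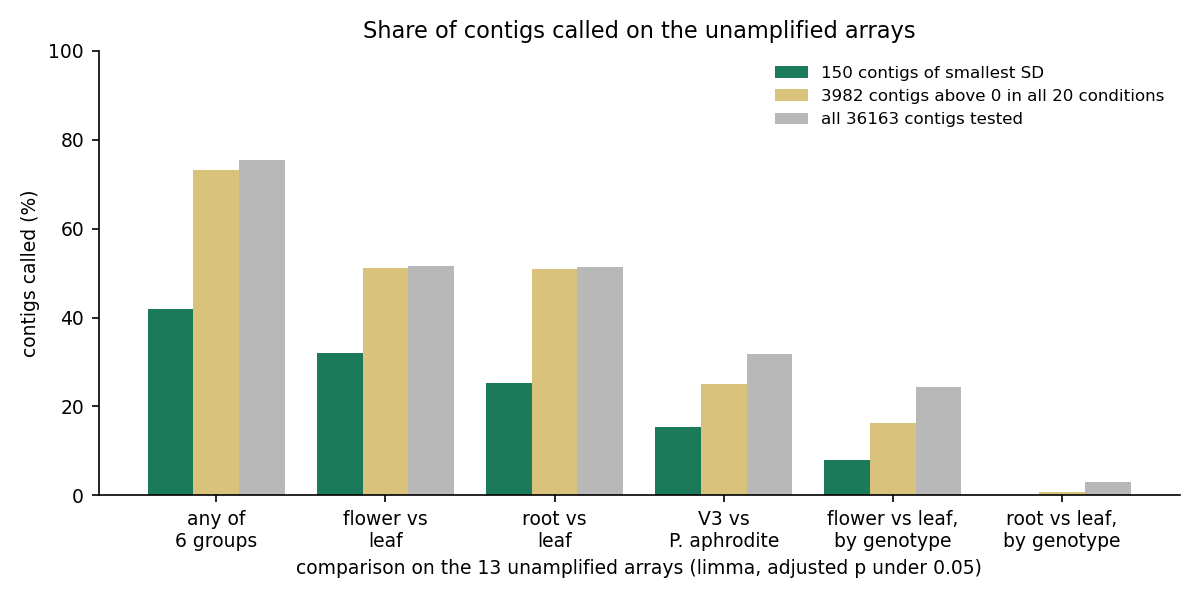
Percent of contigs (y axis) with an adjusted p under 0.05 in each limma comparison of the 13 unamplified arrays (x axis), for the 150 members, the 3982 contigs above 0 in all 20 amplified conditions and all 36163 contigs tested. The members have the lowest bar in every comparison, for example 42.0% against 73.3% and 75.4% among the 6 groups; with normexp the first of these bars is 83.3%.

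Between flowers and leaves, over both genotypes, 48 members changed, 39 of them higher in flowers and 9 lower. The background was 51.6% of all contigs, 28.2% higher and 23.4% lower, and the members' shares were 26.0% and 6.0%. Among the 3982 contigs 34.9% were higher and 16.3% lower, with a median difference of 0.20 against 0.22 for the members, so calls lay more to the higher side there too. Only 4 members passed with over 2-fold, against a background of 22.5%. The direction depended on the scaling: the members' median difference was 0.22 against 0.052 over all contigs after quantile normalization, and 0.12 against 0.16 with each array centred on its 75th percentile alone. Relative to all contigs the sign of the members' shift thus turned. Without *P. aphrodite* leaf replicate 1 the count was 25, without V3 leaf replicate 1 or 2 it was 28 or 30, and with normexp it was 89 (59.3%, all contigs 59.7%).

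The member that rose most in flowers was PATC197928, one of the brightest. It read 5.35, 5.35 and 5.37 in *P. aphrodite* leaf and 5.72 and 5.68 in V3 leaf, against 7.54 and 7.70 in *P. aphrodite* flower and 6.79 and 6.21 in V3 flower. Every flower array was above every leaf array. The difference was 1.53 ± 0.18 (SE, adjusted p = 0.000139). PATC235480 rose by 1.38 ± 0.09 (adjusted p = 5.1e-06). It correlated with PATC197928 at 0.98 over the 20 amplified conditions, so it is not an independent example. Neither contig had a second probe. Among those lower in flowers, PATC157851 read -0.10 and 0.25 in *P. aphrodite* flower and 1.59 and 1.92 in V3 flower, against 1.85, 1.81 and 1.80 in *P. aphrodite* leaf and 2.22 and 2.14 in V3 leaf. The *P. aphrodite* flower stood apart from all others, while V3 flower overlapped *P. aphrodite* leaf. The difference was -1.09 ± 0.13 (adjusted p = 0.00013). PATC126277 differed by -0.54 ± 0.19 (adjusted p = 0.041), and that call was lost without the filter and without any 1 of 7 arrays.

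On the amplified arrays both PATC157851 and PATC197928 differed far less between these tissues. PATC157851 read 1.74 and 1.72 in the amplified *P. aphrodite* flower, 2.04, 2.02 and 2.07 in leaf, and 2.37 and 2.38 in V3 flower. PATC197928 read 5.22 and 5.23 in the amplified *P. aphrodite* flower, 4.83, 4.81 and 4.82 in leaf, and 5.14 and 5.14 in V3 flower. The amplified and unamplified arrays were normalized separately, so only differences within each can be set side by side. The intensity of PATC197928 was 51717 to 273075 on amplified arrays and 35985 to 82134 on unamplified ones, with the brightest probe of an amplified array at 416498 to 705908. The 14 members with a mean level above 4 had a median unamplified range of 1.03, and the other 136 one of 0.74. Among the 3982 contigs the medians above and at or below that level were 1.40 and 1.13. A wider range at high level was thus not particular to the members. Whether the response of the array to very bright spots had a part in this was not tested.

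Between roots and leaves 38 members changed, 35 higher in roots and 3 lower. The background was 51.3%, 24% higher and 27.3% lower. With over 2-fold added 4 members passed, against a background of 22.6%. The roots were scanned in one batch and the leaves and flowers in another, so tissue and scan batch cannot be told apart. *P. aphrodite* root counted as 1 replicate, so its own spread did not enter these tests. PATC140313 rose by 1.18 ± 0.18 (adjusted p = 0.00081) and PATC140899 by 1.16 ± 0.14 (adjusted p = 0.00024). PATC149058 differed by -0.50 ± 0.18 (adjusted p = 0.046) and PATC135998 by -0.34 ± 0.12 (adjusted p = 0.044), and both calls were lost with a lower floor, with the mean of the probes and without any 1 of several arrays of each tissue. The members called were thus nearly all higher in roots. Among the 3982 contigs, too, more were higher (37.1%) than lower (13.8%), and their median difference of 0.23 was above the members' 0.16, so the shift was not particular to the members. The count was 24 without *P. aphrodite* leaf replicate 1, 25 without V3 leaf replicate 2 and 72 (48.0%, all contigs 60.3%) with normexp.

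Between V3 and *P. aphrodite*, over the 3 tissues, 23 members differed, 14 higher in V3 and 9 lower. The background was 31.9%, 16.9% higher and 14.9% lower. With the arrays centred on the 75th percentile alone the split was 11 higher and 12 lower. No member passed with over 2-fold, with the adjusted or the unadjusted p of limma, against a background of 6.51%. *P. aphrodite* root counted as 1 replicate here too, so a comparison of the roots alone takes its spread mostly from other groups. The tissues within the first scan batch gave 20 members (all contigs 32.9%), and the roots alone, in the second batch, 3 (8.91%). The count was 15 without *P. aphrodite* leaf replicate 1 or V3 leaf replicate 1, 50 without V3 root replicate 1 and 56 (37.3%, all contigs 42.2%) with normexp. PATC174173 read 0.29 to 0.72 over all *P. aphrodite* arrays, 0.68 and 0.84 in V3 flower, -0.93 and -1.04 in V3 leaf and -1.05 and -1.11 in V3 root. V3 leaf and root were thus below all other arrays, and V3 flower was among or above them. The difference over the 3 tissues was -0.91 ± 0.09 (adjusted p = 0.00018). V3 leaf and root were not amplified, so the choice of members never saw the tissues in which this contig was low. PATC143053 was lower by -0.76 ± 0.13 (adjusted p = 0.0026), and PATC133227 rose by 0.74 ± 0.14 (adjusted p = 0.0044) and PATC156902 by 0.66 ± 0.09 (adjusted p = 0.0013), a call lost with the mean of its probes.

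**Figure D5:**
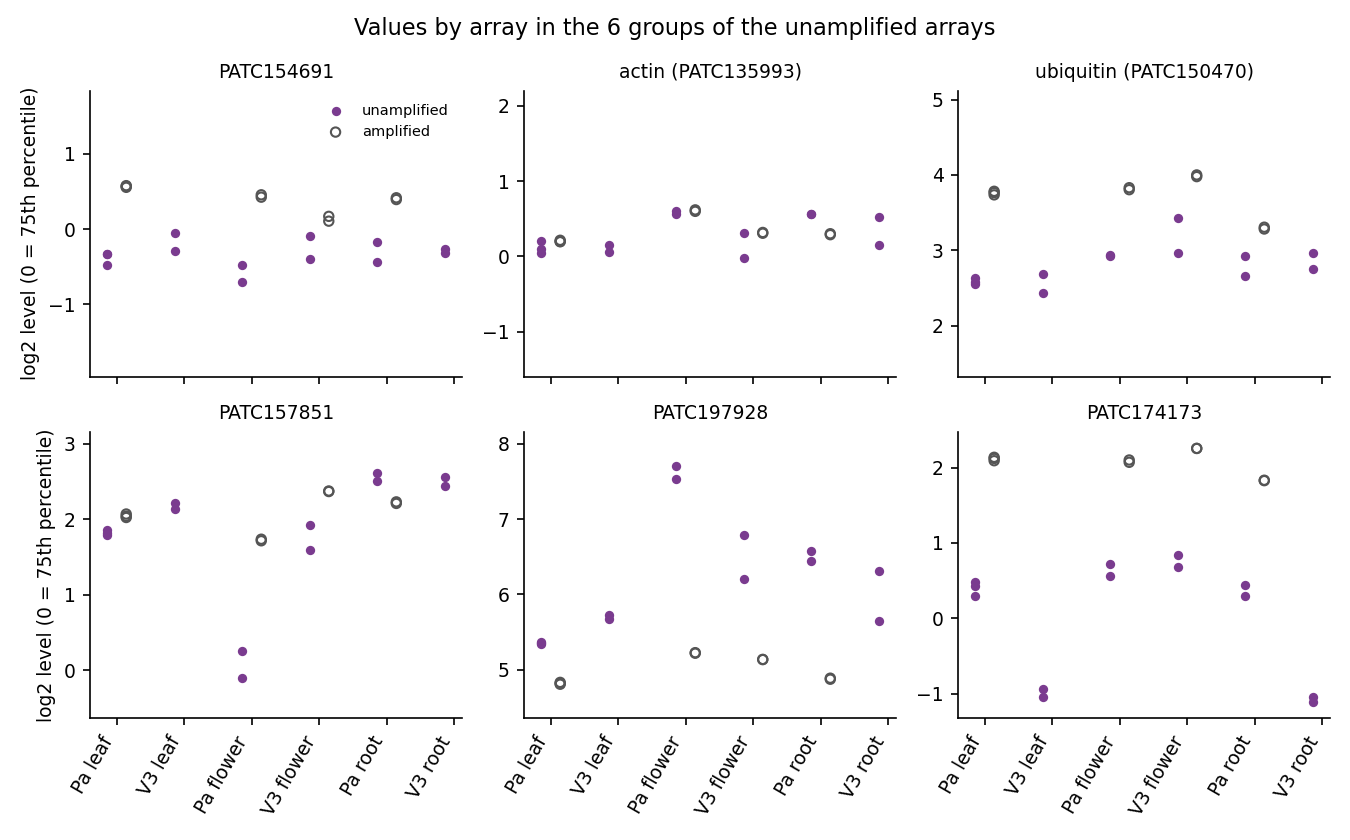
Level on each array (y axis, log2, 0 being the 75th percentile of the array) in the 6 groups of the unamplified arrays (x axis; Pa is *P. aphrodite*), filled for unamplified and open for amplified arrays, which were normalized separately. PATC157851 is low in the unamplified *P. aphrodite* flower and PATC197928 is highest there, with far smaller differences among the open points. PATC174173 is low in V3 leaf and root, which have no open points.

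Whether tissue differences themselves differed by genotype was tested with an interaction term, added after the data were seen. For flowers against leaves 12 members passed, 4 with a positive and 8 with a negative term, against a background of 24.4%. That count was 5 to 7 without *P. aphrodite* leaf replicate 1 or any V3 leaf or *P. aphrodite* flower array, and 21 without either V3 root array. For roots against leaves no member passed in limma, against a background of 3% of all contigs and 0.65% of the 3982. With so few calls among the 3982, this does not set the members apart. At an unadjusted p of limma under 0.05, 6 members passed. Without V3 root replicate 1 there were 5 calls, without *P. aphrodite* root replicate 2 there was 1, and with normexp there were 6. Among the first 10 members, 4 passed the test among the 6 groups (PATC139901, PATC143636, PATC155622 and PATC156902). Of all 150, 73 (48.7%) were called in none of the 3 contrasts of tissue or genotype, against 22.6% of the 3982 and 22.5% of all contigs, and this count does not show that they were alike in the groups.

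The controls were measured on the same arrays. Actin read 0.04, 0.10 and 0.21 in *P. aphrodite* leaf, 0.05 and 0.15 in V3 leaf, 0.57 and 0.60 in *P. aphrodite* flower, -0.01 and 0.31 in V3 flower, 0.56 and 0.56 in *P. aphrodite* root, and 0.16 and 0.53 in V3 root. *P. aphrodite* flower and root were above all leaf arrays, and V3 flower overlapped both V3 leaf and V3 root. Its range was 1.40-fold (adjusted p = 0.12 among the 6 groups), and that p was 0.0029 with normexp and 0.034 with every array counted. Ubiquitin read 2.64, 2.55 and 2.57 in *P. aphrodite* leaf, 2.68 and 2.44 in V3 leaf, 2.93 and 2.94 in *P. aphrodite* flower, and 2.96 and 3.43 in V3 flower. All flower arrays were above all leaf arrays, with a difference of 0.48 ± 0.13 (adjusted p = 0.016). That call was lost with the 75th percentile alone (0.35, adjusted p = 0.063) and without V3 leaf replicate 2 (0.42, adjusted p = 0.062). Over the 6 groups ubiquitin ranged 1.55-fold, and 45 members had a smaller range, while 19 had one smaller than that of actin.

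Means over several members were also narrower than the single controls on the unamplified arrays. The mean of the 3 steadiest members ranged over 0.24, that of the first 10 over 0.33 and that of all 150 over 0.32, against 0.49 for actin and 0.63 for ubiquitin. The order of the controls hung on 1 array: without V3 flower replicate 2 ubiquitin ranged over 0.40 and actin over 0.60. These are differences between group means, and no test was made of them. A mean of several contigs is set beside single controls here, and no mean of other contigs was taken. The median single member ranged over 0.75, wider than either control.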

How the data were processed

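Total RNA of orchid tissues was hybridised to a custom 1-colour Agilent array. The authors deposited 2 kinds of value. The processed signals and the median and background signals of each array are intensity values, made with Feature Extraction 10.7.1.1 per the file headers. The value table that the authors deposited is on a log2 scale: set against the scanner files, it is log2 of the processed signal with a floor of 20, outlier spots left out, minus the 75th percentile of the array. The methods name quantile normalization in GeneSpring, which this table does not show. All value columns were mapped to a sample, and 0 were left unused.

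The members and the lists were chosen with earlier results of these data known. Members were found in the value table. For the unamplified arrays, log2 processed signals were quantile normalized, centred on the 75th percentile and fitted with limma 3.58.1 in R 4.3.3, with the 6 groups in 1 fit and p-values adjusted by Benjamini-Hochberg. The 36163 contigs tested were those whose probe exceeded background throughout 1 group or more. Arrays that differed by at most 1.1 times the spread between spots of a probe were counted as 1, giving 11 replicates. The 2 interaction tests, the comparisons within scan batches and the choices without pollinia or with 1 genotype alone were added after the data were seen. Tables were handled with Python 3.11.15, pandas 2.3.3 and numpy 2.4.6.

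The rule for names took both controls, the 10 steadiest members, the 2 contigs on either side of the threshold and, per contrast, up to 3 members in each direction with the largest difference, of which 2 are printed because the contigs have no gene name. Other contigs are named by likeness or range, after their values were seen. Alternatives were normexp with an offset of 50, the scaling, the floor, the filter, the probe rule, the slide and each array left out. The limma fit was tested on simulated data. The number of arrays limits the precision.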

Additional observations from a re-analysis of the deposited data

Results flagged for a closer look

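For 12 members the difference between flower and leaf on the unamplified arrays differed between V3 and *P. aphrodite* by the interaction term of the limma fit, with adjusted p under 0.05. This was 8.0% of the members, against 16.2% of the 3982 contigs above 0 in all conditions and 24.4% of all contigs. The term is the difference in V3 minus that in *P. aphrodite*. PATC174173 had a term of 1.53 ± 0.21 (SE, adjusted p = 0.0013), with a difference of 0.22 in *P. aphrodite* and 1.75 in V3. PATC157851 had 1.33 ± 0.25 (adjusted p = 0.0066), from -1.75 in *P. aphrodite* and -0.42 in V3. PATC197928 had -1.47 ± 0.36 (adjusted p = 0.020), from 2.27 and 0.80, and PATC127608 had -1.31 ± 0.38 (adjusted p = 0.039), from 0.69 and -0.62. The calls of PATC197928 and PATC127608 were both lost without V3 leaf replicate 1 or 2, *P. aphrodite* leaf replicate 1, either *P. aphrodite* flower replicate or V3 flower replicate 2, and that of PATC127608 also without the filter. The test was added after the data were seen.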

How the results depend on the processing

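With over 2-fold added, the calls among the members were 31 among the 6 groups, 4 for flowers, 4 for roots and 0 for V3. With normexp they were 125, 89, 72 and 56, and 38 and 6 for the interactions of genotype with flowers and roots, where the shares of all contigs were 83.5%, 59.7%, 60.3%, 42.2%, 37.2% and 9.46%. V3 against *P. aphrodite* gave 40 members with every array counted (all contigs 41.1%) and 44 with the slide as a random block (45.1%). It gave 42 with the slide as a term on leaves and flowers (46.6%) and 44 with the mean of the probes (38.8%). Within the second scan batch it gave 3 (8.91%). The flower interaction gave 19 with the mean of the probes (all contigs 32.0%). The root interaction gave 1 without the filter (4.06%), 2 with every array counted (9.67%) and 4 with the slide as a random block (12.5%). Of the 150 members, 77 were kept by quantile normalization, 89 without the filter on the level, 70 without pollinia, 67 with V3 alone and 36 with *P. aphrodite* alone. The SD of ubiquitin was 0.239 in *P. aphrodite* alone, and that of actin 0.305 on its other probe. The V3 difference of ubiquitin, 0.10, turned to -0.0066 with normexp. The cause of none of these changes was tested.

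Leaving out 1 array at a time gave 37 to 96 calls among the 6 groups, 25 to 72 for flowers, 24 to 54 for roots, 15 to 50 for V3, 5 to 21 for the flower interaction and 0 to 5 for the root interaction. *P. aphrodite* leaf replicate 1 and V3 root replicate 1 gave the ends of the first 3 ranges, and both V3 leaf replicates also lowered the flower calls by over 1.5 times. In all these tests the share of the 3982 contigs called fell without that leaf array and rose without that root array. The swing was thus not particular to the members. Without that root array the members' shares for the 6 groups, flowers, roots and V3 came nearer those of all contigs and stayed below them. The members' median unamplified range stayed at 0.742 to 0.882, membership at 143 to 150, the SD of ubiquitin at 0.373 to 0.439 and that of actin at 0.211 to 0.232. Of the alternatives for contigs named, 508 kept direction and side of the threshold, 45 lost the call, 18 gained it and 1 turned. No paired analysis was possible because the labels carry no replicate numbers, and only the slide, given by the files, could be fitted as a block (above). Unamplified arrays, with a 75th percentile of 448.2 to 1106.4 in intensity, were the dimmer ones.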
